A study of Mus musculus with 4 samples.

Results

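Class I molecules of the major histocompatibility complex and the proteins that load them with peptide were followed in the stomach of male mice. The set was named gene by gene: the heavy chains H2-K1, H2-D1, H2-T23 and H2-M2, the light chain B2m, the transporter subunits Tap1 and Tap2, the loading chaperone Tapbp and the trimming peptidase Erap1. A member was a microarray probe whose annotation gave exactly 1 gene symbol, and that symbol was on the list. Of the 9 genes, 8 had such a probe, 1 each, of 13840 genes that had a probe with a single symbol on this array. All 8 had a value on all arrays, as did 7682 of the 13840. H2-D1 was annotated only on probe 917291, which carries 2 symbols, and was not counted as measured. H2-K1, H2-T23, H2-M2, Tap1, Tap2 and Tapbp are genes of chromosome 17, B2m of chromosome 2 and Erap1 of chromosome 13.

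The congenic strain, B6.CAST-17, was homozygous for chromosome 17 material from CAST, placed on a B6 background. Its name gives the background, the donor and the chromosome. The wild-type strain was C57BL/6J, the inbred mouse known as B6. Both groups were male, ate chow and had been food deprived for 4 h when the stomach was taken, and each group was 2 pools of RNA from 3 animals, 1 pool to an array. The labels state neither the age of the mice nor where the CAST material begins and ends. The 4 arrays held 16320 to 16954 values each, and 13475 probes had a value on all of them. Pearson's r between arrays, across those probes and not across independent replicates, lay between 0.983 and 0.991. The tissue label was checked against 13 stomach epithelial markers, of which 9 were measured. The proton pump subunit Atp4a averaged 19.55 in congenic and 19.76 in wild-type pools on the log2 scale, and the gastrokine Gkn2 read 21.25, the highest value of the table, on every array and so has no spread to compare. Among these 9, limma called 0, and 3 reached an unadjusted p under 0.05, against 15.8% of all probes. All 3 had lower congenic values: the hormone genes Gast (-0.59 ± 0.099) and Ghrl (-0.43 ± 0.093), and Atp4a (-0.21 ± 0.079). Each limma p-value below draws on how far 2 pools of a strain lay apart and on the spread of other probes. Single animals were not measured.

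A class I molecule is a heavy chain bound to beta-2-microglobulin and a short peptide, and it shows fragments of a cell's own proteins to cytotoxic T cells and natural killer cells. Peptides cut in the cytosol are pumped into the endoplasmic reticulum by the Tap1 and Tap2 transporter, trimmed there by Erap1, and fitted into the heavy chain with the help of tapasin, the product of Tapbp. H2-K1 and H2-D1 encode classical heavy chains, which vary greatly between mouse strains, while H2-T23 encodes Qa-1, a non-classical chain read by inhibitory receptors of natural killer cells. Nearly all nucleated cells make class I, so a whole stomach reports epithelium, muscle, nerve and immune cells together, and in pooled tissue RNA fewer cells of a type and less RNA per cell cannot be told apart.

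The start regions of H2-K1 and H2-T23, heavy chains whose differences had opposite signs, and of the light chain gene are shown because class I genes are classically controlled by short elements close to their start. Each window holds 250 bases before to 50 bases after the annotated start in RefSeq's GRCm38.p6, which is the C57BL/6J sequence and therefore that of the wild-type strain. The CAST sequence was not used here. Each is written 5′ to 3′ on the gene's strand, with capitals for matches on either strand to AANNGAAA (a core that interferon regulatory factors bind), the NF-kB consensus, CCAAT (the Y box of class I promoters) or TGACG (as in their X2 box).
H2-K1, chr17:34000298-34000597, minus strand: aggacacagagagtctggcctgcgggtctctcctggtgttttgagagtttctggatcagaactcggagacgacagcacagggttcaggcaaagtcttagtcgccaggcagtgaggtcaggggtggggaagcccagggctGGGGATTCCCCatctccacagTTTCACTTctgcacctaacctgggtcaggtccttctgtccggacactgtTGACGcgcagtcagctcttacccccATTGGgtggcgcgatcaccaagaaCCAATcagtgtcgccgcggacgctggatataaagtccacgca
H2-T23, chr17:36032652-36032951, minus strand: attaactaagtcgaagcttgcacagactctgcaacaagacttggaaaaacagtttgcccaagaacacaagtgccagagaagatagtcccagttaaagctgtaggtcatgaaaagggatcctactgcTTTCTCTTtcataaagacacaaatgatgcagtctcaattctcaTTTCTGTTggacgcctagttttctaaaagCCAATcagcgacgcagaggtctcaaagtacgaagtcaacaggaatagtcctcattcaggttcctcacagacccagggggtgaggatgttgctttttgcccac
B2m, chr2:122147437-122147736, plus strand: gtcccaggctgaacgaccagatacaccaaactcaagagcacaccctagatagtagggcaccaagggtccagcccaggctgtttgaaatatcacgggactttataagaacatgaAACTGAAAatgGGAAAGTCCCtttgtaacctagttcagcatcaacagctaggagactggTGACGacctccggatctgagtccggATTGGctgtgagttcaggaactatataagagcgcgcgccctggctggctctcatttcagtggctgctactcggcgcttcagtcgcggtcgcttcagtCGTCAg
The H2-K1 window held 1 match to AANNGAAA, 4 overlapping matches to the NF-kB consensus over both strands of a single stretch, 2 to CCAAT and 1 to TGACG. Of its CCAAT matches, 1 lay after the annotated start, at bases 8 to 12. Its NF-kB stretch began at -111 from the annotated start, and the same letters in H2-D1 at -171. Positions therefore depend on the annotated start, which was not checked. The H2-T23 window held 2 matches to AANNGAAA and 1 to CCAAT. The B2m window held 1, 1, 1 and 2 matches to the 4 motifs in the same order. A window was in the table for 8 of the 9 genes, all but Tap2, and the first listed window of a gene was used. AANNGAAA was found in 6 of the 8 and in 24.2% of 27025 gene windows of the same length. The NF-kB consensus was found in 4 of 8 and in 8.18% of all, CCAAT in 7 of 8 and in 37.9%, and TGACG in 5 of 8 and in 21% of all. Matches overlapped each other only within the NF-kB stretches of H2-K1 and H2-D1 and, in H2-M2, between an NF-kB and an AANNGAAA match. These matches describe letters in a window and were not tied to any difference below.

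Of the 8 members, H2-T23 fell in the congenic stomach and the other 7 did not pass the test. Each difference is the congenic mean minus the wild-type mean of log2 signal, ± SE from limma's moderated fit over all 13475 probes (n = 2 pools a strain), and a probe passed at a Benjamini-Hochberg adjusted p under 0.05. Over all probes 0.475% passed, and 0.186% passed and were lower in the congenic pools. On chromosome 17 the share was 5.22% of 383 named probes, and 1 of the 6 members there passed. Elsewhere it was 0.266% of 7521, and 0 of the 2 members there passed in limma, neither with an unadjusted p under 0.05. The median difference was -0.067 over the 8 members, with a range of -0.69 to 0.27, and -0.0020 over all probes. Their median size regardless of sign was 0.166, against 0.153 for all probes. For the 6 on chromosome 17 the median size was 0.231, against 0.211 for all named probes of that chromosome. In size, the members' differences lay close to these backgrounds.

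**Figure D1:**
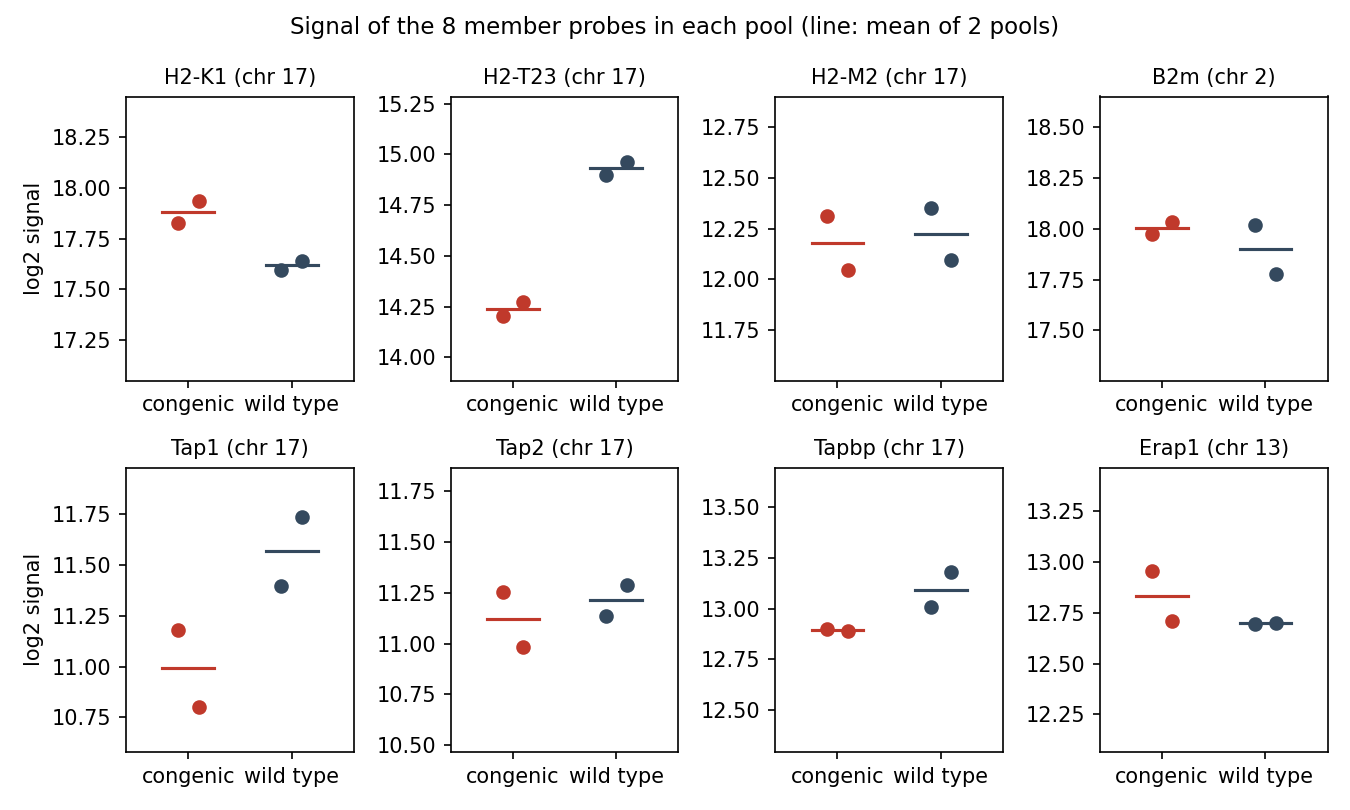
Log2 signal of the 8 member probes (vertical axis, all panels spanning the same number of log2 units) in the congenic and wild-type pools; points are pools and lines the mean of 2. The H2-T23 points of the congenic pools lie at 14.21 and 14.27, apart from 14.90 and 14.96 in the wild-type pools, while the Tap2 and H2-M2 points overlap.

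H2-T23, the Qa-1 heavy chain, read 14.21 and 14.27 in the congenic pools, against 14.90 and 14.96 in the wild-type pools (probe 558496). Pools of the same strain lay 0.067 and 0.063 apart, far less than the gap between the strains, and the strains did not overlap. The difference was -0.69 ± 0.079 (95% interval -0.89 to -0.50), 1.62-fold lower in the congenic pools, with a limma adjusted p of 0.03131. The call was lost when any 1 pool was left out, with adjusted p between 0.06458 and 0.211, although the difference itself stayed between -0.73 and -0.66. Such a fit leaves 1 strain with a single pool, assumed to vary like the other strain, and why the call was lost was not tested. It was also lost when the dependence of the variance on signal level was not modelled (adjusted p = 0.1782).

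**Figure D2:**
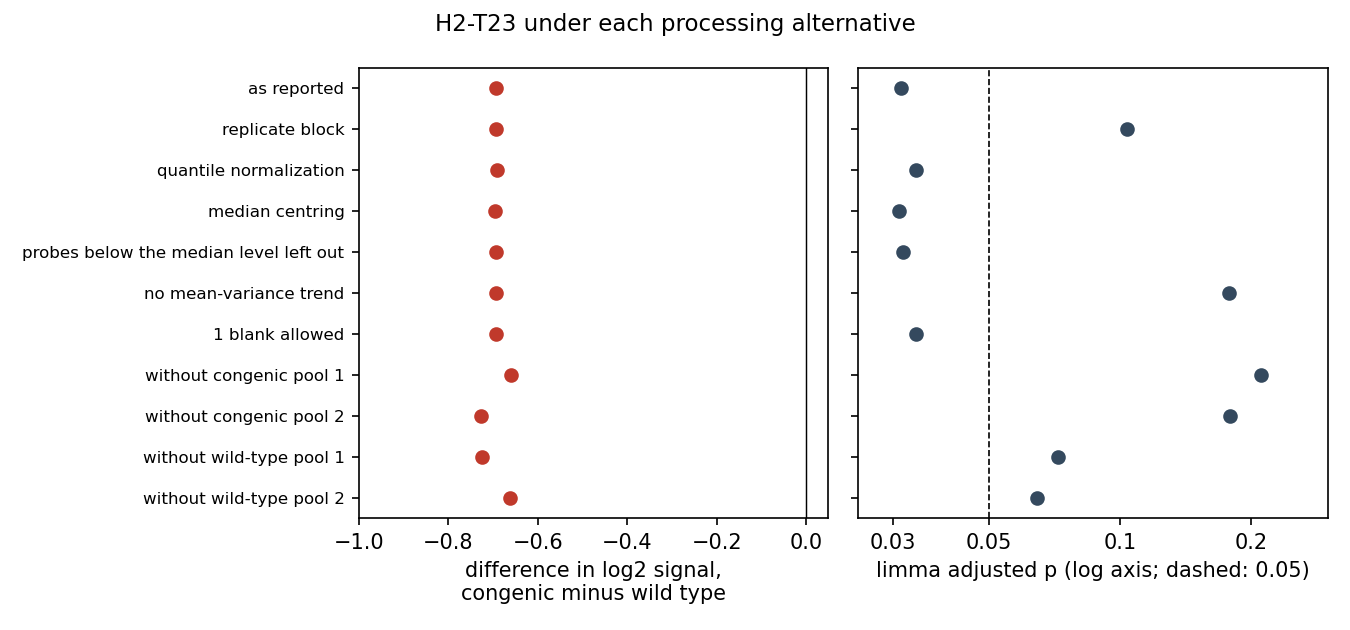
Difference of H2-T23 in log2 signal, congenic minus wild type (left), and its limma adjusted p on a log axis (right), as reported and under each of 10 processing alternatives. The difference keeps to a range of -0.73 to -0.66, while the adjusted p lies on both sides of the dashed line at 0.05.

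H2-K1, the classical heavy chain H-2K, went the other way in value without passing. It read 17.83 and 17.94 in the congenic pools, against 17.59 and 17.64 in the wild-type pools, so the strains did not overlap, by a narrow margin. The difference was 0.27 ± 0.076, or 1.20-fold (95% interval 0.078 to 0.45; limma unadjusted p = 0.01327, adjusted p = 0.2227). Its signal was among the highest of each array, above 96.6% to 97.3% of the values.

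H2-M2, a little studied non-classical heavy chain, read 12.31 and 12.05 in the congenic pools, against 12.35 and 12.09 in the wild-type pools. The pools of each strain lay further apart (0.265 and 0.256) than the strains did (-0.041 ± 0.16, 95% interval -0.43 to 0.35). The interval covers changes in either direction.

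Probes with more than 1 symbol were looked up only for H2-D1 and a few other class I genes chosen by hand. The 2 found with a value on all arrays showed larger differences but cannot be given to a single gene. Such probes of other class I genes were not looked up. Probe 917291, whose 2 symbols include H2-D1, read 15.86 and 15.88 in the congenic pools, against 14.75 and 14.50 in the wild-type pools. It was 2.37-fold higher (1.25 ± 0.10, limma adjusted p = 0.00907), and lost the call without congenic pool 1 or congenic pool 2 (adjusted p = 0.1053 and 0.1104) and without the variance trend (0.1166). Probe 638437, with 3 class I symbols, read 10.59 and 10.82 in the congenic pools, against 11.96 and 12.32 in the wild-type pools. Its difference was -1.43 ± 0.20, with a limma adjusted p of 0.0584. Both probes separate the strains by more than H2-K1 or H2-T23 does in log2 units, 1 in each direction. The array's probe sequences were not used here, and class I genes are both alike within a strain and different between strains. A difference in transcript amount and a difference in how an allele or a close relative binds a probe therefore cannot be told apart, for these probes and for H2-K1 and H2-T23. How a CAST allele binds its probe was likewise not examined for any other chromosome 17 gene named here. Among these are Tap1, Tap2, Tapbp, H2-M2 and H2-Ob.

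B2m, the light chain shared by all class I molecules, is encoded outside the chromosome named in the congenic strain. It read 17.98 and 18.04 in the congenic pools, against 18.02 and 17.78 in the wild-type pools, and the strains overlapped. The difference was 0.11 ± 0.099 (95% interval -0.14 to 0.35, limma adjusted p = 0.623), and its sign changed without wild-type pool 2 (-0.013). Taken within each array, the change of H2-T23 minus that of B2m was -0.80 log2, and that of H2-K1 minus B2m was 0.16. An exact permutation test over the 4 arrays gave two-sided p = 0.3333 for H2-T23, the smallest that 2 pools against 2 can give, and p = 0.6667 for H2-K1.

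The 2 subunits of the peptide transporter had different values. Tap1 read 11.18 and 10.80 in the congenic pools, against 11.40 and 11.74 in the wild-type pools. Both congenic values were the lower ones, but pools of a strain differed by 0.377 and 0.343. The difference, -0.58 ± 0.22 (95% interval -1.11 to -0.047), was the second largest among the members and did not pass (limma unadjusted p = 0.03737, adjusted p = 0.2913). Tap2 read 11.26 and 10.98 in the congenic pools, against 11.14 and 11.29 in the wild-type pools, with overlap and a difference of -0.094 ± 0.19 (95% interval -0.55 to 0.37). Whether the change of Tap1 differs from that of Tap2 was not tested. Both transporter probes were dim, above 24.8% to 39.5% of an array's values, and their standard errors were the largest of the set.

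Tapbp, whose product tapasin holds empty class I molecules at the transporter, read 12.90 and 12.89 in the congenic pools, against 13.01 and 13.18 in the wild-type pools. The strains did not overlap, and the difference was -0.20 ± 0.11 (95% interval -0.46 to 0.068, limma adjusted p = 0.4266). Erap1, the peptidase that trims peptides to class I length, read 12.95 and 12.71 in the congenic pools, against 12.69 and 12.70 in the wild-type pools. Its congenic values lay just above the wild-type values, with a difference of 0.13 ± 0.12 (95% interval -0.17 to 0.44, limma adjusted p = 0.6232) and, without congenic pool 1, 0.012.

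Across the members, the strains did not overlap for 5 of 8, 2 higher (H2-K1, Erap1) and 3 lower (H2-T23, Tap1, Tapbp) in the congenic pools. The same held for 49.4% of all probes compared. Of the 6 members on chromosome 17, 1 was higher and 3 were lower without overlap. Among the 383 named probes there, 98 were higher and 142 lower without overlap. An unadjusted p under 0.05 was reached by 3 of 8 (H2-T23, H2-K1 and Tap1), against 15.8% of all probes. All 3 lie on chromosome 17, where 132 of the 383 named probes reached it. On chromosome 17, 5 of 6 differences were negative and H2-K1 alone was positive, while both members elsewhere were positive. Of the 383 named probes of that chromosome 211 were negative, and of all 13475 probes 6796 were. The signs of H2-M2, Tap2 and B2m changed when 1 pool was left out.

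In gene order along chromosome 17 the 6 members ran Tapbp, H2-K1, Tap1, Tap2, H2-T23, H2-M2. They lay within a stretch of 67 of the chromosome's 379 measured genes, from position 168 to 234. Of the 61 other measured genes in that stretch, 2 were higher and 3 lower past the threshold, with a median difference of -0.10 and a median size of 0.243. The measured genes next to each member, looked up after the values were seen, were read beside it. Beside H2-T23 lay Abcf1, a translation factor (-0.12 ± 0.084), and Rpp21, a subunit of ribonuclease P (-0.24 ± 0.092), and neither passed. Beside H2-K1 lay Rps18, a ribosomal protein gene (-0.42 ± 0.099), and Ring1, a Polycomb subunit (-0.29 ± 0.096), both negative where H2-K1 was positive, and neither passed. Tap1 and Tap2 were consecutive. The next gene after Tap2 was the class II gene H2-Ob, which read 17.21 and 17.70 in the congenic pools, against 12.05 and 11.49 in the wild-type pools (5.68 ± 0.23).

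**Figure D3:**
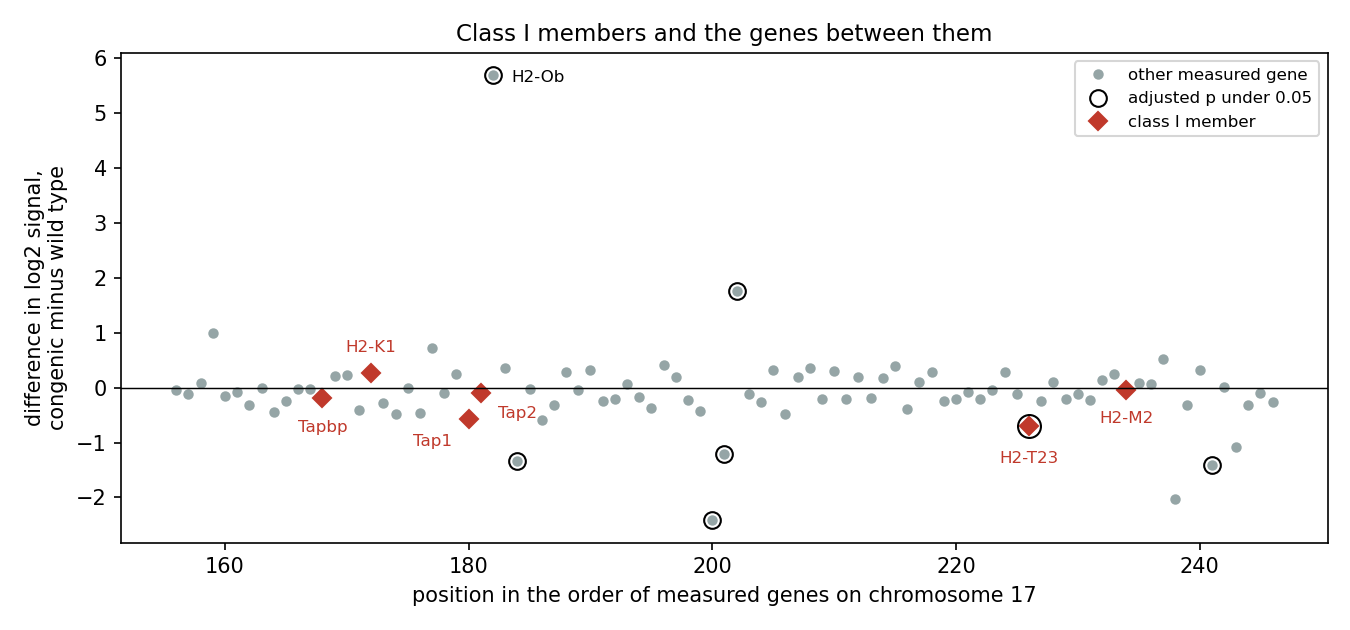
Difference in log2 signal, congenic minus wild type (vertical axis), for measured genes in their order along chromosome 17 (horizontal axis), from 12 genes before Tapbp to 12 genes after H2-M2. Diamonds are members, grey points other genes, and rings mark adjusted p under 0.05; among the members only H2-T23 (-0.69) is ringed, and H2-Ob (5.68) lies far above all others.

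By Euclidean distance between centred log2 values over the 4 arrays, the 3 named probes most like H2-T23 were Xlr3c on the X chromosome (distance 0.0375), Slc25a23 on chromosome 17 (0.0533) and Rnaset2b on chromosome 17 (0.0750). Xlr3c read 11.56 and 11.65 in the congenic pools, against 12.25 and 12.36 in the wild-type pools. Its difference of -0.70 ± 0.13 did not pass (limma adjusted p = 0.143). Slc25a23, a mitochondrial carrier of ATP-magnesium and phosphate, fell by 0.66 ± 0.081 (limma adjusted p = 0.04059). Rnaset2b, a lysosomal ribonuclease gene, fell by 0.67 ± 0.080 (limma adjusted p = 0.03707). Xlr3c and Rnaset2b belong to families of near-identical copies, which makes their values uncertain, and with 4 arrays many probes can share a pattern.

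The wider class I pathway was read from 5 lists of 86 genes, of which 39 were measured on all arrays, 31 of them not members. H2-T23 was the single gene that passed in limma, and 8 of the 39 had an unadjusted p under 0.05, against 15.8% of all probes. The median difference of the 39 was -0.034.

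Of 27 heavy chains and class I-like molecules, 9 were measured, 1 fell, 0 rose and 8 did not pass, with a median of -0.033. H2-Q7, a Qa-2 heavy chain with near-identical relatives, averaged 16.11 in the congenic pools and 15.92 in the wild-type pools (0.19 ± 0.15). H2-Q10, a secreted heavy chain best known from liver, differed by -0.18 ± 0.16, and Cd1d1, which presents lipids to natural killer T cells, by -0.29 ± 0.25. The strains overlapped for H2-Q7 and Cd1d1 but not for H2-Q10. The probes of H2-T3, H2-M1, H2-M9 and H2-M10.1 were blank on all arrays.

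Of 14 genes for peptide loading and chaperones of the endoplasmic reticulum, 11 were measured and 0 passed in limma, where 2 had an unadjusted p under 0.05 (Sec61b and Tap1). Sec61b, a subunit of the protein translocation channel, read 15.05 and 15.02 in the congenic pools, against 15.34 and 15.26 in the wild-type pools (-0.26 ± 0.074, limma adjusted p = 0.2155). Canx, which encodes the calnexin that folds new heavy chains, differed by 0.25 ± 0.10, and Sec61a1, the channel's core, by -0.19 ± 0.086. In all 3, which were named for their small p, the strains did not overlap. In the whole list 2 genes were higher and 4 lower without overlap, and 49.4% of all probes did not overlap. The list's median was -0.094.

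Of 14 immunoproteasome and cytosolic peptidase genes, 8 were measured and 0 passed in limma, with 3 at an unadjusted p under 0.05 and a median of -0.032. Psme3, an activator of the nuclear proteasome, read 13.47 and 13.46 in the congenic pools, against 13.81 and 13.86 in the wild-type pools (-0.37 ± 0.086, limma adjusted p = 0.1778). Npepps, a cytosolic aminopeptidase, differed by 0.33 ± 0.096 and Thop1, a peptidase that destroys class I peptides, by -0.24 ± 0.097. Nrd1, a metallopeptidase, differed by 0.35 ± 0.19, with wild-type pool 1 (13.73) apart from the other 3 arrays (14.34 to 14.40). Psmb8, an inducible catalytic subunit encoded beside the transporter genes, had a value on 1 array, wild-type pool 2 (12.60).

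Of 18 regulators of class I transcription, 10 were measured and 0 passed in limma, with 1 at an unadjusted p under 0.05 and a median of -0.017. That was Jak1, a kinase of interferon receptors, which read 11.79 and 11.97 in the congenic pools, against 11.14 and 11.29 in the wild-type pools (0.66 ± 0.16, limma adjusted p = 0.1827). Irf1, a transcription factor induced by interferon gamma, read 12.33 and 12.35 in the congenic pools, against 12.63 and 12.58 in the wild-type pools (-0.27 ± 0.11). Ifngr1, the ligand-binding chain of the interferon gamma receptor, differed by -0.14 ± 0.070, and Irf8, a factor of myeloid and B cells, by 0.39 ± 0.24. Of 13 receptors that read class I, only Pirb, an inhibitory receptor of myeloid and B cells, was measured on all arrays (-0.39 ± 0.25, not passing).

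**Figure D4:**
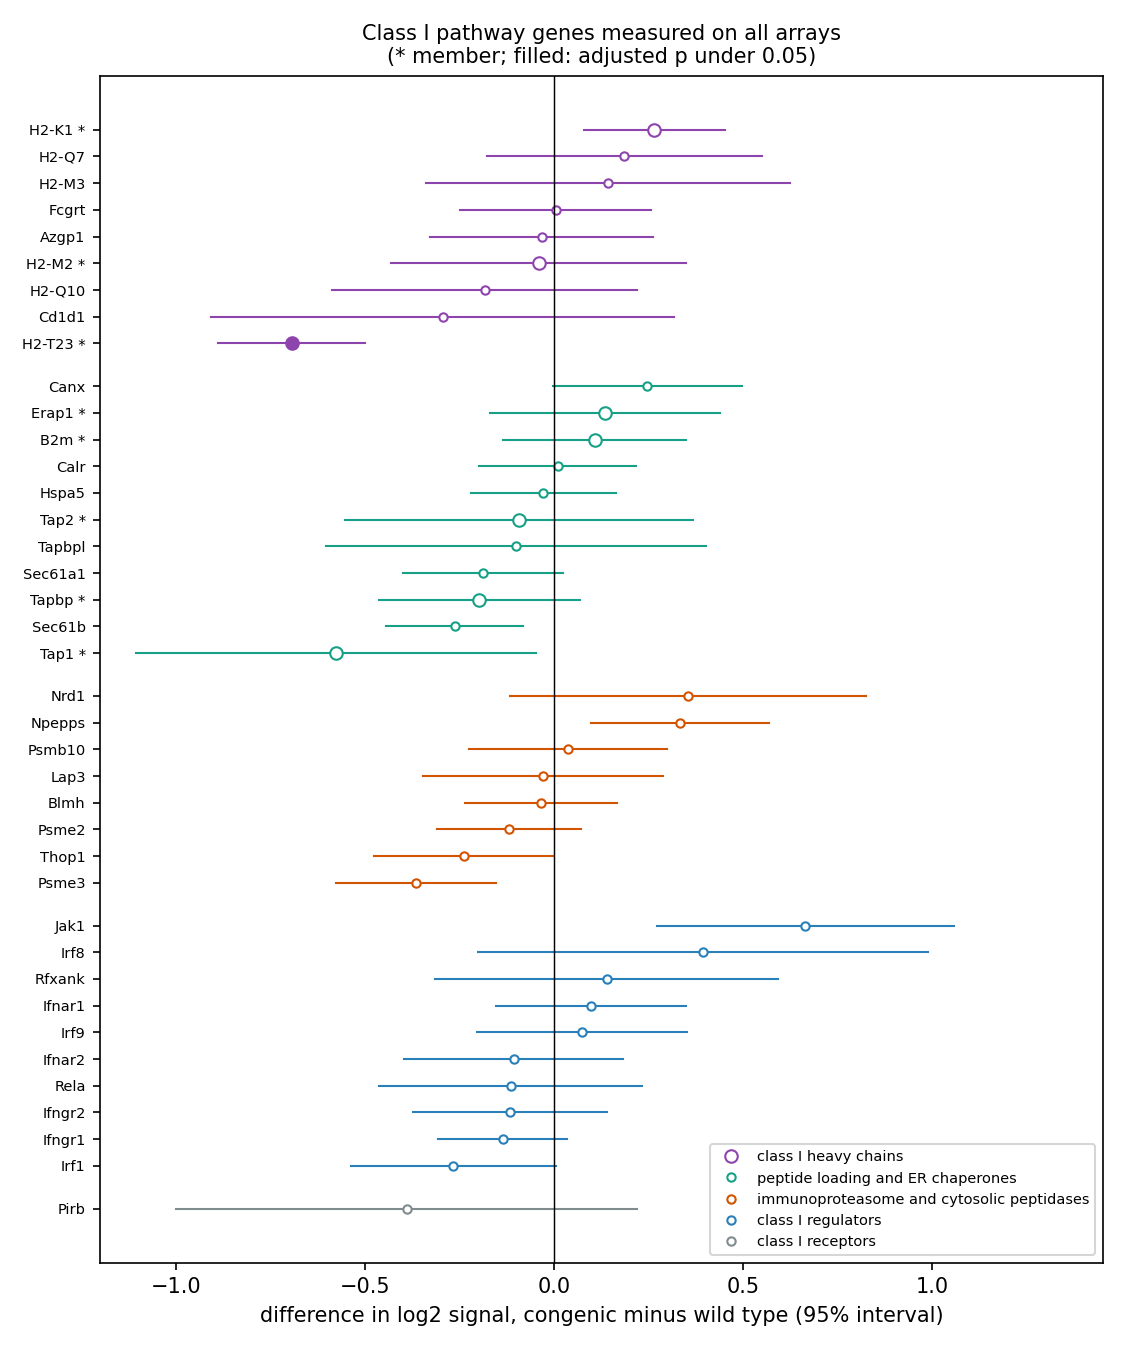
Difference in log2 signal, congenic minus wild type, with its 95% interval (horizontal axis) for the 39 class I pathway genes measured on all arrays, coloured by list, with members marked by an asterisk. Only H2-T23 is filled (adjusted p under 0.05); Tap1 (-0.58) and Jak1 (0.66) have the next largest differences, with wider intervals.

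Markers of other cells were read beside these values. Ptprc and Itgb2, of the leukocyte list, were blank on all arrays. The 2 of its 6 genes that were measured averaged 10.25 and 10.42 in the congenic pools, against 10.34 and 10.55 in the wild-type pools, and 0 passed in limma (1 at an unadjusted p under 0.05). These were Rac2 (-0.45 ± 0.17) and Laptm5 (0.23 ± 0.35), with opposite signs. For T and natural killer cells 2 of 14 were measured, with means of 12.21 on both congenic pools, against 12.31 and 12.32 in the wild-type pools, and 0 passed in limma (1 at an unadjusted p under 0.05). These were Cd2 (-0.65 ± 0.25) and Nkg7 (0.43 ± 0.23), with opposite signs. Gzmb had values in the congenic pools alone (8.77 and 10.93), and Thy1 and Gzma were blank on all arrays. For B and plasma cells 1 of 9 was measured (Jchain, 0.12 ± 0.10, not passing). Cd79a had values in the congenic pools alone (10.64 and 10.32), and Cd79b, Ms4a1, Mzb1 and Cd22 were blank on all arrays. Of 14 macrophage and dendritic cell markers 8 were measured, averaging 13.72 and 13.68 in the congenic pools, against 13.68 and 13.80 in the wild-type pools, and 0 passed in limma (0 at an unadjusted p under 0.05). Their differences were negative for 7 and positive for 1. Without overlap, 4 were lower and 0 higher, where 49.4% of all probes did not overlap. Some markers of other tissues differed between strains, where 0.475% of all probes passed. All 9 measured pancreatic acinar markers rose, with list means of 15.33 and 15.29 in the congenic pools, against 13.05 and 12.99 in the wild-type pools. Of 7 skeletal muscle markers 3 fell and 4 did not pass, with list means of 12.33 and 12.36 in the congenic pools, against 13.53 and 13.62 in the wild-type pools. All 7 were lower without overlap and had a limma unadjusted p under 0.05, with a median of -1.18. Of 5 liver markers 1 rose (Alb) and 4 did not pass, with list means of 14.78 and 14.75 in the congenic pools, against 13.87 and 14.01 in the wild-type pools. All 5 were positive and 3 were higher without overlap. Of all probes 49.4% did not overlap, and 15.8% had an unadjusted p under 0.05. The part of these tissues in the class I values was not tested.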

How the data were processed

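Total RNA (1 microgram per pool) was transcribed into digoxigenin-labelled cRNA for single-colour chemiluminescent arrays, per the labels' protocols. The deposited table holds 1 log2 value per probe and array. Base 2 was judged from the values, which run from 6.73 to 21.25, and all folds depend on it. How the authors normalized the arrays and when they left a cell blank is not given in the sources used here. A blank was not read as an absent transcript. Identical values recurred across arrays, as they do after quantile normalization. Atp4b read 18.8065 in congenic pool 1 and in wild-type pool 1. The value 19.7738 was that of Atp4a in wild-type pool 1 and of Gkn1 in wild-type pool 2. Of 33012 probes, 14411 had 1 symbol in the platform annotation, 247 several and 18354 none. Through gene IDs, 14402 matched GRCm38.p6, used for chromosomes and gene order, since the array files name no build.

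Strains were compared on the 13475 probes with a value on all arrays, with no further normalization, filter or pseudocount. R 4.3.3 ran limma 3.58.1, using lmFit and then eBayes with trend, for a two-sided test adjusted over all probes. Degrees of freedom were 2 (residual) and 3.97 (prior). The fit was tested on simulated data. Of the probes compared, 39 passed higher and 25 lower. Lists used the probe with the highest mean per gene. The rule named all members, every gene of the pathway lists that passed, up to 4 others per pathway list by p, and the 3 patterns most like each member that passed. Neighbours, blank probes and markers were named after their values were seen. Members and lists were chosen with earlier results of these data known. Alternatives were the replicate block, quantile normalization, median centring, leaving out dim probes or each pool, no variance trend, 1 blank allowed, and averaging the probes of a gene. Promoter windows came from RefSeq. Exact permutation tests used scipy 1.17.1 and figures matplotlib 3.10.9.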

Additional observations from a re-analysis of the deposited data

Results flagged for a closer look

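Hfe, a class I-like protein of iron sensing, had values of 12.20 and 12.18 in the congenic pools (mean 12.189) and was blank in both wild-type pools. The same held for 2 markers of immune cells, Cd79a of the B cell receptor (10.64 and 10.32, mean 10.48) and the granzyme gene Gzmb (8.77 and 10.93, mean 9.85). They drew attention because they had a value in both congenic pools and in neither wild-type pool. The share of all probes with this pattern is not given here. With no wild-type value they entered no comparison, and a blank cell does not show that a transcript was absent.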

How the results depend on the processing

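The count of member probes and the count of class I pathway genes past the threshold were both 1, for H2-T23. Each was 1 with quantile normalization, median centring, dim probes left out and 1 blank allowed, and 0 with the replicate block, without the variance trend and when any 1 pool was left out (range 0 to 0). Over all probes the count of 64 was 35 with the replicate block, 20 without the variance trend and between 15 (without congenic pool 1) and 168 (without wild-type pool 2) when a pool was left out. No pathway gene had more than 1 compared probe, so averaging probes changed nothing. Identical values recurred across arrays, so the deposited values may already be quantile normalized. Quantile normalization and median centring could then change little, and their counts of 1 are no independent check. No design text ties pools of the same number, and their deviations correlated at -0.0643 between strains across probes, so the block reflects a number only. With it H2-T23 had the same difference (-0.69) and a limma adjusted p of 0.1037. The cause of the lost calls was not tested. The sign of 3 members changed when a pool was left out. H2-M2 was 0.092 without congenic pool 2 and 0.088 without wild-type pool 1, within a range of -0.17 to 0.092. Tap2 was 0.043 without congenic pool 2, within -0.23 to 0.043, and B2m was -0.013 without wild-type pool 2, within -0.013 to 0.23. H2-K1, Tap1, Tapbp, Erap1 and H2-T23 kept their sign under every alternative that gave them a value. With probes below the median level left out, H2-M2, Tap1, Tap2 and Erap1 were not in the fit. Signal over background is unknown here, and 4 arrays limit the precision.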
